A study of Rattus norvegicus with 24 samples.

Results

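The integrin subunits and focal adhesion linkers examined here were 10 genes of rat tibialis anterior muscle: the integrin subunits Itga5, Itga6, Itga7, Itgav and Itgb1, and the linker and scaffold genes Ilk, Vcl, Tln1, Flna and Zyx. They were chosen by gene symbol, and all transcripts carrying a symbol were summed, which gave 13 of the 20027 transcripts and 10 of the 15273 gene symbols in the deposited table. All 10 passed the filter on low values (3 or more muscles at 1 or above), which left 11196 genes to test. The rule uses symbols alone, though the genes were picked with earlier results of these data known, so the shares of members called are not independent evidence.

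Integrins are heterodimers of an alpha and a beta subunit that span the cell membrane and bind the extracellular matrix outside and a chain of adaptor proteins inside. In skeletal muscle they sit at the costameres, where the sarcomere is tied sideways to the membrane, and at the junctions with tendon, and the alpha 7 beta 1 laminin receptor is the main form in mature fibres. Talin and the integrin-linked kinase complex bind the beta tail, while vinculin, filamin and zyxin connect the adhesion to actin and are recruited under mechanical load.

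The study trained male Wistar rats with an implanted pulse generator that made the left tibialis anterior contract against the plantarflexors once a day (SpillOver resistance training), for 2, 10, 20 or 30 days. Muscles were taken an hour after the last bout, so the response to that bout and to the preceding training cannot be told apart. The unstimulated right muscle of the same animals was the control, with 12 animals, 3 per time, and 24 muscles analysed here. The control is thus a muscle of a trained animal that had carried the implant, not a muscle of an untrained animal. The study also had a sham surgery group, which is not analysed here, and 3 muscles per trained group limit the precision of every comparison.

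Poly-A RNA was sequenced, and the deposited values are TPM-type, scaled for transcript length to 1 common total per sample. The tables keep no read counts, so the number of reads behind each value cannot be had from them. Values below were rescaled by 1 factor per muscle (median of ratios), from 0.778 in 1 contralateral muscle of 30 days to 1.14, and are called rescaled values. The fibre markers Acta1, Ckm, Des, Mb and Tnnt3 summed to between 57407 and 69714 in the control muscles and to between 47467 and 81286 in the trained ones. Single fibre markers were called in both directions, Des (desmin) higher at 2, 10 and 20 days, Tnnt3 lower at those times, Ckm lower from 10 days on, Acta1 higher at 10 days, and Mb (myoglobin) lower at 2 days and higher later. Mitochondrially encoded mRNA took 27.8% to 43.7% of the values in controls, 23.4% to 28.5% after 2 and 10 days and 39.9% to 43.9% after 30 days. Its part in the scaling was not tested. Without rescaling, all genes tested had a median change at 30 days of -0.18 (log2) in place of -0.01, and the share of higher among called genes was 20% in place of 54%. At 2 and 10 days that share was 74.5% and 75.4% without rescaling and 53.4% and 53.9% with it, so each change below is relative to the bulk of genes.

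In the control muscles Itgb1, the beta subunit shared by the 4 alpha subunits here, had the highest rescaled level per length, 57.7 ± 5.55 (SD, n = 12). Vcl (vinculin) followed at 22.98 ± 3.15, Ilk (integrin-linked kinase) at 18.6 ± 1.86 and Itga7 at 11.7 ± 1.61. The levels of Tln1 (talin 1), Zyx (zyxin) and Flna (filamin A) were 10.2 ± 0.953, 9.41 ± 1.41 and 7.35 ± 1.796. At the low end stood Itga6 at 4.37 ± 0.667, Itga5 at 2.14 ± 0.217 and Itgav at 1.36 ± 0.560. Neighbours in this order overlapped across the 12 muscles, with the exception of Itgb1 above Vcl, Ilk above Itga7 and Itga6 above Itga5. Itga7, the laminin-binding subunit of muscle fibres, therefore stood above the other alpha subunits in every control muscle. A limma F test between the 4 contralateral groups of 3 called 0 of the 10 members, with 0 at an unadjusted p under 0.05, where it called 0.0666% of 10517 genes.

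Promoter sequences, 250 bases before to 50 after the annotated start, were at hand in RefSeq (GRCr8) for 8 of the members, with 9 promoters in all, since Zyx has a pair. Itga6 and Itga7 had no entry. Those of Itga5, Itgb1 and Vcl are shown because these genes rose together, and that of Itgav because its level did not pass the test at any time. Capitals mark GC boxes (GGGCGG, a Sp1 type motif) and TEAD sites (GGAATG), found on either strand.
Itga5 promoter (GRCr8, chr7:136381256-136381555, minus strand): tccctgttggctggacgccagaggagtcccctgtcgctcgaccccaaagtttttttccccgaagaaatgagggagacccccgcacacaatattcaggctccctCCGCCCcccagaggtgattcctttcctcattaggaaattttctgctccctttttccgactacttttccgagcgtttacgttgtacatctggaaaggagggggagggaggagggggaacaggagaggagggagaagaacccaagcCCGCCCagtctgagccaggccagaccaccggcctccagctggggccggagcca
Itgb1 promoter (GRCr8, chr19:73602027-73602326, plus strand): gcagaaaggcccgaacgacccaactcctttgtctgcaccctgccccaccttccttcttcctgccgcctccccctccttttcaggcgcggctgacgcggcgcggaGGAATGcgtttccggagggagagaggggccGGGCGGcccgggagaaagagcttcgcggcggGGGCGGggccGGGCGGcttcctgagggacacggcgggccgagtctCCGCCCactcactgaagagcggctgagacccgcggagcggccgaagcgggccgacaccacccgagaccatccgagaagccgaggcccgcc
Vcl promoter (GRCr8, chr15:3404751-3405050, minus strand): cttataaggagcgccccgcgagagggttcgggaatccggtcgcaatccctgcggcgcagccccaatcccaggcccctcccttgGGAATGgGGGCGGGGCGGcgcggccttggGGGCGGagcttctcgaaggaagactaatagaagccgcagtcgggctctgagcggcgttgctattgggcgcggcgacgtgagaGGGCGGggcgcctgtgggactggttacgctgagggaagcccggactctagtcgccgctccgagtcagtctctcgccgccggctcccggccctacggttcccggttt
Itgav promoter (GRCr8, chr3:89245132-89245431, plus strand): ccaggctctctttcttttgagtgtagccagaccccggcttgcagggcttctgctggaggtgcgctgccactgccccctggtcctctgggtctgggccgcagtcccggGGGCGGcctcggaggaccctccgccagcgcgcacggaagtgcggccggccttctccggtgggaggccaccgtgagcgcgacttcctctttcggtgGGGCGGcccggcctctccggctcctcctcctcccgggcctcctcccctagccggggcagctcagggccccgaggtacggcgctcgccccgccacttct
The GC box was present in 8 of the 9 member promoters, all but that of Tln1, and in 33.1% of the 33469 promoters in the table. A TEAD site was present in those of Flna, Itgb1 and Vcl and in 1 of those of Zyx, at 74, 146, 167 and 205 bases before the start, and in 14.2% of all promoters. In the Vcl promoter GC boxes at 160 and 155 bases before the start share a base. An AP-1 site (TGANTCA) and a CArG box, the element bound by serum response factor, were each present in 0 of the 9, against 7.33% and 1.64% of all promoters, which says only that these letters are not in these windows. The Itgav promoter held 72.7% G and C with 27 CpG, the Itgb1 promoter 71.7% with 35 and the Vcl promoter 68.7% with 35. That of Itga5 held 58.7% with 13, against a median of 51.7% and 7 over all promoters. Genes with a like promoter composition thus included both called and uncalled members.

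Set against the 12 contralateral muscles, 8 of the 10 members rose after 2 days of training and 1, Itga6, fell. After 10 days 8 had risen, after 20 days 7 and after 30 days 4, with no member lower at these times. The genes higher at all 4 times were Itga5, Vcl, Tln1 and Flna, 4 of 10 members where 5.24% of all genes tested were. With animal as a block they were 3, Itga5, Vcl and Tln1, where 3.64% of all genes were, since Flna missed the threshold at 2 days. Among all genes the shares called higher at 2, 10, 20 and 30 days were 15.4%, 15.6%, 11.7% and 11.1%, and those called lower were 13.5%, 13.3%, 9.64% and 9.46%. The median log2 fold change of the members was 1.06, 0.97, 0.58 and 0.37, beside -0.01, -0.03, -0.03 and -0.01 for all genes tested. The 4 comparisons share the same 12 control muscles, so they are not independent of each other. Without replicate 2 of the muscles trained for 20 days, 4 members were called at that time, beside 1730 of 11170 genes. In the deposited gene-level table, which holds 7 of the members and was looked at after the transcript table, 0 were called at 30 days as deposited, where the median of all its genes was -0.35, and 6 after rescaling. The tests were moderated limma tests with Benjamini-Hochberg adjustment over all 11196 genes and a threshold of 0.05.

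**Figure D1:**
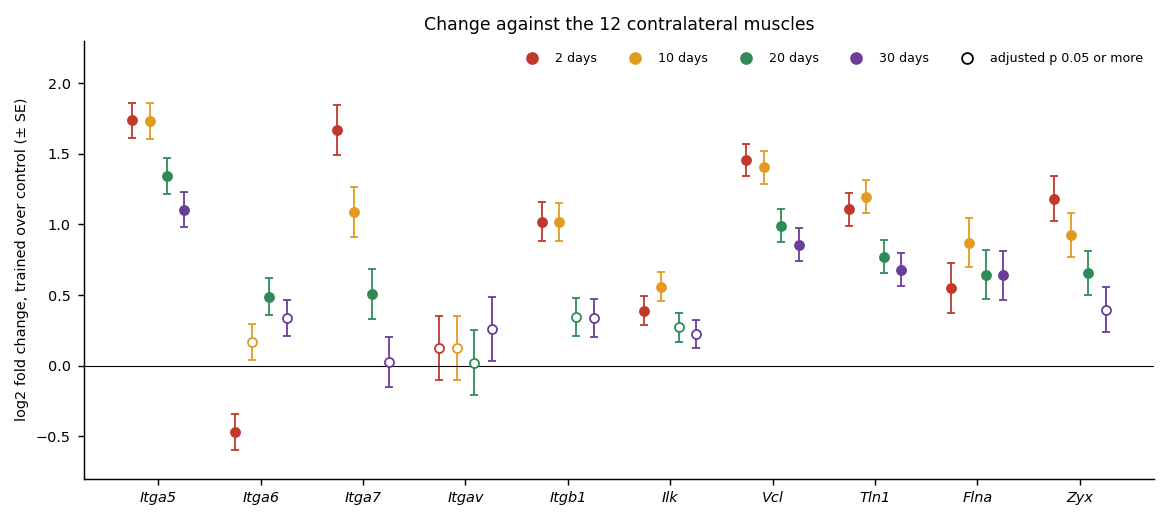
Log2 fold change of each member, trained over the 12 contralateral muscles, on the log2(value + 1) scale (y axis), with its standard error, by gene (x axis) and days of training (colour). Filled points had an adjusted p under 0.05, and a reader sees the largest changes in Itga5 at 2 and 10 days, then Itga7 at 2 days, Itga7 at 0.02 at 30 days and Itga6 below 0 at 2 days.

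Itga5, which encodes the alpha subunit of the fibronectin receptor, lies on chromosome 7 from 144970444 to 144993653 on the minus strand (rn6). Its rescaled value lay between 1.85 and 2.45 in the 12 control muscles, with a median of 2.18. It was 6.90, 13.98 and 8.61 after 2 days, 11.6, 8.17 and 8.73 after 10 days, 7.46, 6.19 and 7.24 after 20 days and 5.76, 6.11 and 5.38 after 30 days. All 12 trained muscles stood above all 12 controls. The mean was 4.59 times that of control at 2 days and 2.68 times at 30 days. On the log2(value + 1) scale the changes were 1.74, 1.73, 1.34 and 1.11 (standard error 0.13 each, adjusted p = 4.05e-10, 3.97e-10, 3.92e-08 and 1.08e-06), the largest among the members at each time. This scale understates the change of a gene with low values such as Itga5.

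Itga7, the alpha subunit of the laminin receptor of muscle fibres, lies on chromosome 7 from 3355116 to 3384676 on the plus strand. The control values ran from 9.63 to 15.1, with a median of 11.2. The trained muscles held 23.7, 56.1 and 44.3 after 2 days, 25.4, 34.99 and 19.2 after 10 days, 16.4, 19.3 and 15.1 after 20 days, and 13.1, 12.1 and 10.3 after 30 days. The trained muscles were above every control up to 20 days, by a narrow margin at that time, and lay within the control range at 30 days. The log2 fold change was 1.67 at 2 days and 1.09 at 10 days (standard error 0.18 each, adjusted p = 1.53e-07 and 4.52e-05). At 20 days it was 0.51 (standard error 0.18, adjusted p = 0.0422), and at 30 days 0.02 (adjusted p = 0.942). The call at 20 days did not hold with animal as a block (0.47, adjusted p = 0.117). It was also lost on leaving out any of the 3 muscles trained for 20 days, or any of 7 contralateral muscles (replicates 1 and 2 of 10 days, 1 and 3 of 20 days, and 1, 2 and 3 of 30 days), with adjusted p between 0.0516 and 0.203.

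The Itga7 sum holds a pair of protein-coding transcripts, Itga7-201 and Itga7-202. Their mean values were 6.42 and 5.25 in control, 22.5 and 18.9 after 2 days, 14.6 and 11.98 after 10 days, 9.16 and 7.80 after 20 days and 6.43 and 5.42 after 30 days. Both were thus higher at 2 days and near the control mean at 30 days. The transcripts overlap along most of the gene, so how reads were split between them is uncertain.

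Itgb1, the beta 1 subunit that pairs with each of these alpha subunits, lies on chromosome 19 from 61677542 to 61725536 on the plus strand. Its control values lay between 48.0 and 67.4, with a median of 57.5. It stood at 85.4, 143.8 and 131.8 after 2 days and at 135.6, 139.2 and 85.7 after 10 days. It then stood at 81.0, 65.6 and 74.1 after 20 days and at 67.6, 76.5 and 75.0 after 30 days. All muscles trained for 2, 10 or 30 days were above the controls, at 30 days by a narrow margin (67.6 against 67.4), while 1 of those trained for 20 days was within the control range. The log2 fold change was 1.02 at both 2 and 10 days (standard error 0.14, adjusted p = 5.59e-06 and 4.57e-06), and 0.34 at both 20 and 30 days (standard error 0.14, adjusted p = 0.0774 and 0.0843), which did not pass the threshold.

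Itga6, a laminin-binding alpha subunit found on endothelial and other cells, lies on chromosome 3 from 58443101 to 58515125 on the plus strand. Its control values ran from 3.29 to 5.55, with a median of 4.21. The values were 3.12, 2.49 and 2.98 after 2 days, 4.86, 3.80 and 6.69 after 10 days, 6.30, 6.04 and 7.17 after 20 days and 7.02, 4.95 and 5.45 after 30 days. It was thus the member with all trained muscles below the controls at 2 days and all above at 20 days, where 6.18% and 8.23% of all genes tested stood so. The log2 fold change was -0.47 at 2 days (standard error 0.13, adjusted p = 0.00751), 0.17 at 10 days (adjusted p = 0.345), 0.49 at 20 days (standard error 0.13, adjusted p = 0.00692) and 0.34 at 30 days (adjusted p = 0.0600). Animal as a block gave -0.34 at 2 days (adjusted p = 0.0990) and kept the call at 20 days (0.47, adjusted p = 0.0336), while controls of the same time alone ended both calls (adjusted p = 0.160 at 2 days and 0.0616 at 20 days). The fall at 2 days was also lost on the values as deposited (-0.38, adjusted p = 0.0519) and without replicate 2 of the trained muscles (-0.40, adjusted p = 0.0892), and the rise at 20 days without replicate 3 (0.43, adjusted p = 0.0540). At 30 days it passed without replicate 1 or 2 of the 30-day contralateral muscles (adjusted p = 0.0449 and 0.0383).

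Beside Itga6, the summed level of 6 endothelial marker genes lay between 35.1 and 52.7 in control muscles, 35.9 and 39.4 after 2 days, 44.3 and 80.4 after 10 days, 60.1 and 68.9 after 20 days and 49.9 and 67.0 after 30 days. Of these 6, 1 was lower at 2 days (Kdr), 3 were higher at 10 days and at 20 days, and 2 were higher at 30 days. Over all genes tested 13.5% were lower at 2 days, and 15.6%, 11.7% and 11.1% were higher at 10, 20 and 30 days. None of the 6 was at 0 in any muscle. Cdh5, the VE-cadherin of endothelial junctions, was the gene most like Itga6 over the 24 muscles (Pearson r = 0.898). The part of the marker change in the values of Itga6 was not tested, and in whole-muscle RNA fewer cells of a type and less RNA per cell cannot be told apart.

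Itgav, the alpha v subunit of the vitronectin receptors, lies on chromosome 3 from 71114100 to 71202412 on the plus strand. Its control values spread from 0.390 to 2.17, with a median of 1.35. It held 2.07, 0.841 and 1.79 after 2 days, 1.51, 1.00 and 2.13 after 10 days, 1.27, 0.912 and 1.92 after 20 days, and 1.46, 1.00 and 3.23 after 30 days. Trained and control muscles overlapped at every time. The log2 fold changes of 0.13, 0.13, 0.02 and 0.26 had standard errors of 0.23 and adjusted p of 0.718, 0.727, 0.964 and 0.465, so a change of the size seen in Ilk would not have been detectable in this gene. Its Itgav-201 and Itgav-202 transcripts span the same coordinates, with means of 0.400 and 0.963 in control and 0.876 and 0.691 after 2 days, and the split of reads between them is uncertain.

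**Figure D2:**
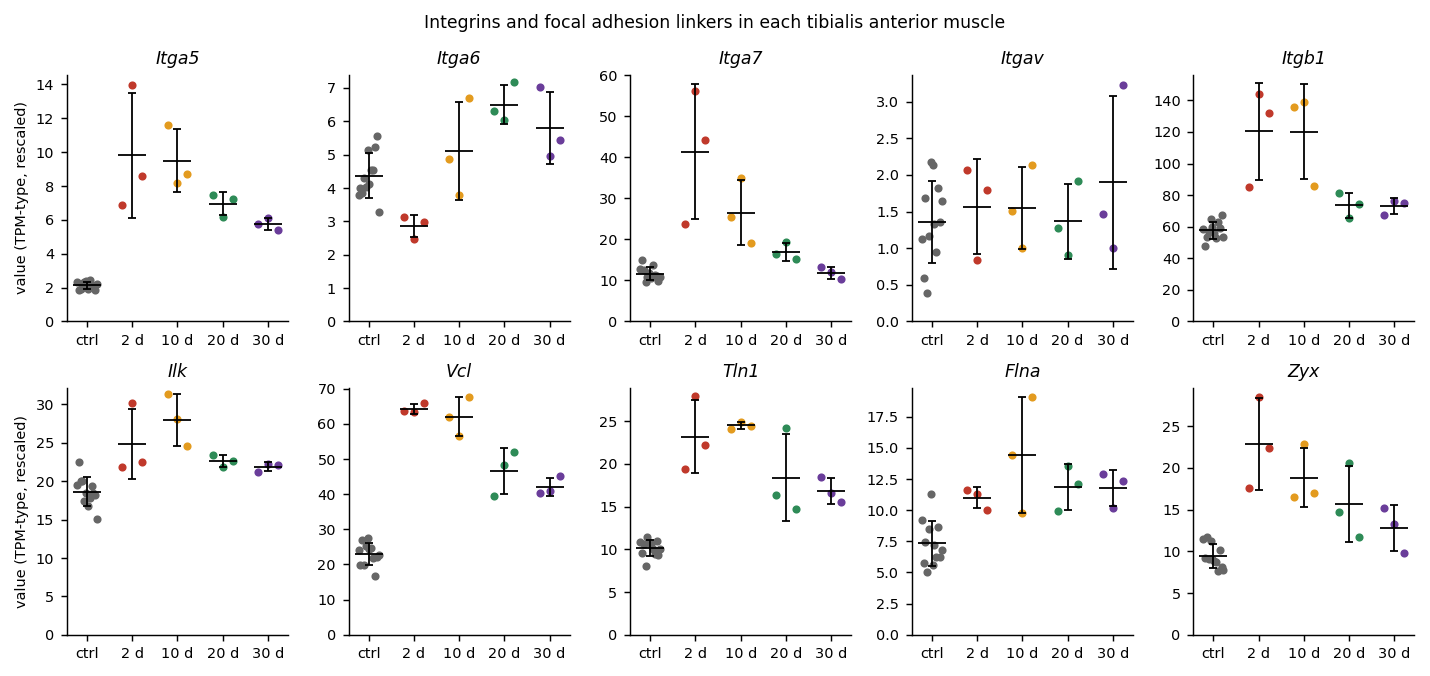
Rescaled TPM-type value (y axis, from 0) of each member in every muscle, for the 12 contralateral controls (ctrl) and the 3 muscles trained for 2, 10, 20 or 30 days (x axis); points are muscles, long bars the mean and short caps 1 SD. Itga5, Vcl and Tln1 stood above the controls in every trained muscle, Itgav overlapped at all times, and Itga6 was below the controls at 2 days and above at 20 days.

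Among the linkers, Vcl, which links talin to actin under tension, lies on chromosome 15 from 3455211 to 3544703 on the minus strand. Its control values ran from 16.7 to 27.4, with a median of 23.4. It stood at 63.7, 63.2 and 66.0 after 2 days, 61.9, 56.7 and 67.7 after 10 days, 39.5, 48.3 and 52.1 after 20 days and 40.4, 40.9 and 45.1 after 30 days. The lowest trained muscle was above the highest control at every time. The mean was 2.80 times that of control at 2 days and 1.83 times at 30 days. The log2 fold changes were 1.46, 1.40, 0.99 and 0.86 (standard error 0.11 each, adjusted p = 1.26e-09, 2.36e-09, 8.54e-07 and 1.05e-05). The means of its transcripts Vcl-201 and Vcl-202 were 18.97 and 4.00 in control and 55.7 and 8.63 after 2 days, and their split is uncertain, since they overlap.

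Tln1, which encodes talin 1 and joins the beta tail to vinculin and actin, lies on chromosome 5 from 59033636 to 59063593 on the minus strand. Its control values lay between 8.04 and 11.5, with a median of 10.3. The trained values were 19.4, 27.9 and 22.2 at 2 days, 24.1, 24.9 and 24.5 at 10 days, 16.3, 24.1 and 14.7 at 20 days and 18.5, 16.5 and 15.5 at 30 days. No trained muscle overlapped with the controls. The log2 fold changes were 1.11, 1.20, 0.77 and 0.68 (standard error 0.12 each, adjusted p = 1.61e-07, 4.36e-08, 3.63e-05 and 2.06e-04).

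Zyx encodes zyxin, a LIM domain protein recruited to strained actin at adhesions, and lies on chromosome 4 from 71740532 to 71749387 on the plus strand. Its control values lay between 7.60 and 11.7, with a median of 9.08. The trained values were 17.6, 28.5 and 22.4 at 2 days, 16.5, 22.9 and 17.03 at 10 days, 14.7, 20.6 and 11.7 at 20 days and 15.2, 13.3 and 9.81 at 30 days. The groups did not overlap at 2 and 10 days, while the lowest muscle trained for 20 or 30 days was within the control range. The log2 fold change was 1.18 at 2 days, 0.93 at 10 days and 0.66 at 20 days (standard error 0.16 each, adjusted p = 4.51e-06, 8.19e-05 and 0.00361). At 30 days it was 0.40 (standard error 0.16, adjusted p = 0.0766), and 0.56 (adjusted p = 0.0394) without replicate 3 of that time. The call at 20 days was lost without replicate 2 (0.45, adjusted p = 0.0793).

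Flna, the actin crosslinker that binds integrin beta tails, lies on chromosome X from 156463953 to 156487246 on the plus strand. Its control values ran from 5.07 to 11.3, with a median of 7.02. The trained values were 11.6, 11.3 and 10.0 at 2 days, 14.5, 9.75 and 19.1 at 10 days, 9.94, 13.6 and 12.1 at 20 days and 12.9, 10.1 and 12.3 at 30 days. At each time at least 1 trained muscle lay within the control range, in a gene with a wide control spread. The log2 fold changes were 0.55, 0.87, 0.64 and 0.64 (standard error 0.17 each, adjusted p = 0.0200, 4.99e-04, 0.00933 and 0.0105). With animal as a block the call at 2 days was lost (0.52, adjusted p = 0.0527), and it was lost too without replicate 1 or 2 of that time (adjusted p = 0.0675 and 0.104). The calls at 20 and 30 days rested on single muscles as well, with adjusted p of 0.0771 without replicate 2 of 20 days, and 0.0643 and 0.0584 without replicate 1 or 3 of 30 days. On the values as deposited the change at 30 days was 0.43 (adjusted p = 0.106), and against controls of the same time alone adjusted p was 0.120 at 2 days and 0.0798 at 30 days.

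Ilk, the pseudokinase scaffold that carries parvin and PINCH at the beta tail, lies on chromosome 1 from 170578889 to 170585190 on the plus strand. Its control values ran from 15.1 to 22.5, with a median of 18.4. The trained values were 21.9, 30.2 and 22.6 at 2 days, 31.3, 28.1 and 24.5 at 10 days, 23.4, 21.9 and 22.6 at 20 days and 21.2, 22.3 and 22.1 at 30 days. The groups were apart at 10 days and met or overlapped at the other times. The log2 fold changes were 0.39, 0.56, 0.27 and 0.23 (standard error 0.10 each, adjusted p = 0.00516, 1.60e-04, 0.0578 and 0.118), the smallest of the linkers at each time. The call at 2 days did not hold with animal as a block (0.24, adjusted p = 0.147) or without replicate 2 of that time (0.25, adjusted p = 0.143). At 20 days the change passed without replicate 2 of the 2-day contralateral muscles (0.30, adjusted p = 0.0295).

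Members with all 3 trained muscles above the highest of the 12 controls numbered 6, 7, 5 and 4 after 2, 10, 20 and 30 days. Over all genes tested this held for 8.57%, 10%, 8.23% and 7.48%. With animal as a block, so that each trained muscle was set against the contralateral muscle of its own animal, 6, 8, 6 and 4 members were called higher, where 11.8%, 12.1%, 9.94% and 7.21% of all genes were, and 0 were called lower, where 9.8%, 8%, 7.42% and 5.09% were. The members whose call was lost were Itga6, Ilk and Flna at 2 days and Itga7 at 20 days.

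Within animals the trained muscle had the higher value in 12 of 12 pairs for Itga5, Itgb1, Ilk, Vcl, Tln1, Flna and Zyx. For Itga7 it was higher in 11 of 12, for Itga6 in 7 and for Itgav in 6. The ratio of trained to contralateral ran from 2.46 to 7.57 for Itga5, from 1.62 to 3.18 for Vcl and from 1.54 to 2.99 for Tln1. It ran from 1.12 to 1.61 for Ilk, the narrowest range among the members. Itgav ranged from 0.595 to 3.87, in no order of time.

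**Figure D3:**
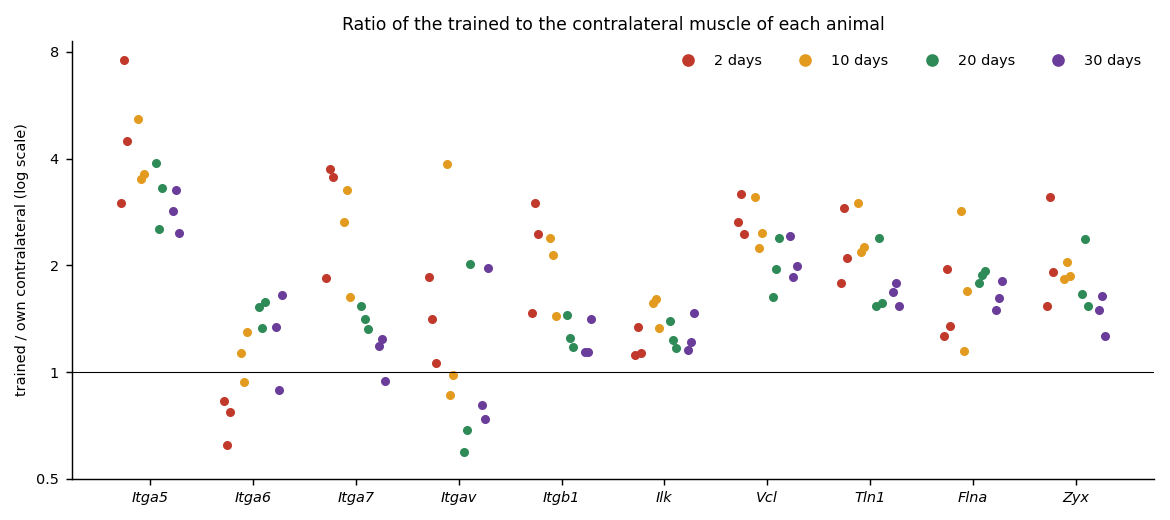
Ratio of the rescaled value in the trained muscle to that in the contralateral muscle of the same animal (y axis, log scale; the line is at 1), by member (x axis) and days of training (colour), 3 animals per time. All 12 animals lie above 1 for Itga5, Itgb1, Ilk, Vcl, Tln1, Flna and Zyx, while Itga6 lies below 1 in the 3 animals of 2 days.

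Shares within a muscle do not depend on the scaling between muscles. Of the summed rescaled values of Itga5, Itga6, Itga7 and Itgav, Itga7 took 59.6% ± 4.76 (SD, n = 12) in control muscles, Itga6 22.4% ± 3.59, Itga5 11.02% ± 1.39 and Itgav 6.95% ± 2.80. After 2 days the share of Itga7 was 66.2%, 76.4% and 76.8% in the 3 muscles, against 52.7% to 70.0% in controls. The share of Itga6 was 8.72%, 3.39% and 5.17% at that time, all below the 18.3% of the lowest control. At 10 days it was 11.2%, 7.92% and 18.2%, and at 20 and 30 days it lay between 18.6% and 25.6%, within the control range of 18.3% to 29.9%. Itga7 took 48.0%, 50.2% and 42.3% after 30 days, all below every control. The share of Itga5 was above every control in all 12 trained muscles, at 14.9% to 26.7% against 8.59% to 13.5%. In the sum of these 4 subunits, muscles trained for 30 days thus had a larger share of Itga5 and a smaller share of Itga7 than contralateral muscles. The level of Itga7 itself was near that of control at 30 days (log2 fold change 0.02, adjusted p = 0.942 by limma). These shares are a description without a test.

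**Figure D4:**
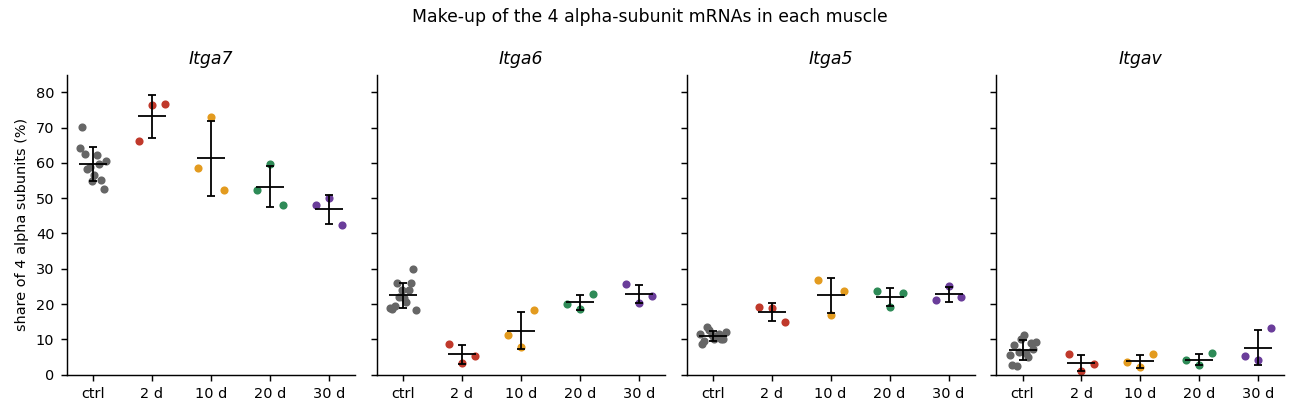
Share of each alpha subunit in the sum of Itga5, Itga6, Itga7 and Itgav (y axis, percent of rescaled values per length) in the 12 contralateral controls (ctrl) and after 2, 10, 20 and 30 days of training (x axis); points are muscles, long bars the mean and caps 1 SD. Itga6 has a mean share of 5.76% at 2 days, and Itga7 one of 73.1% at 2 days and 46.8% at 30 days.

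The ratio of Itgb1 to the sum of these 4 alpha subunits was 2.98 ± 0.435 (SD, n = 12) in control muscles, from 2.24 to 3.63. It was 2.21 ± 0.223, 2.79 ± 0.407, 2.32 ± 0.281 and 2.90 ± 0.381 after 2, 10, 20 and 30 days of training (SD, n = 3). The trained and control muscles overlapped at each of these times. No test was made of this ratio.

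Direct contrasts between trained groups tested whether the members differed with the length of training. Animals of different times are not paired, so the value given with animal as a block is another quantity, the difference between the trained-minus-contralateral changes at both times. From 2 to 10 days 1 member was called, Itga6 (log2 fold change 0.64, standard error 0.16, adjusted p = 0.0373), where 1.93% of genes were. For the difference of within-animal changes 0 members were called, where 0.0625% of genes were (Itga6 0.47, adjusted p = 0.484). For that difference 1 member had an unadjusted p under 0.05, and the share of all genes at that cut is not given here. The call of Itga6 was lost without replicate 2 or 3 of 2 days or replicate 1 or 3 of 10 days (adjusted p between 0.104 and 0.215), and without replicate 1 of 2 days Itga7 was called as well (-0.92, adjusted p = 0.00819). From 10 to 20 days limma called 0 members and from 20 to 30 days 0, where 0.17% and 0.0357% of all genes were called. At an unadjusted p under 0.05 there were 6 members from 10 to 20 days, beside 1050 of the 11196 genes. From 20 to 30 days there was 1 member at that cut, beside 763 of the genes. The largest of the steps from 10 to 20 days was that of Itgb1, -0.67 (standard error 0.17, adjusted p = 0.122). Without replicate 3 of 10 days, its lowest muscle of that time, this step was -0.90 (adjusted p = 0.0102).

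From 2 to 30 days, Itga5, Itga7, Itgb1, Vcl and Zyx were lower and Itga6 was higher, 6 of 10 members where 15% of all genes were called, 7.91% lower and 7.07% higher. Itga7 fell by 1.64 on the log2 scale (standard error 0.22, adjusted p = 5.10e-05), the most of the members. Zyx fell by 0.79, Itgb1 by 0.68, Itga5 by 0.63 and Vcl by 0.60 (adjusted p = 0.00907, 0.00964, 0.00906 and 0.00667). Itga6 rose by 0.81 (standard error 0.16, adjusted p = 0.00151). Tln1 stood at -0.43 (adjusted p = 0.0533), Ilk at -0.16, Flna at 0.09 and Itgav at 0.13. For the difference of within-animal changes, Itga7 was the member called (-1.33, standard error 0.28, adjusted p = 0.0266), where 2.8% of all genes were, and Itga5, Itga6, Itgb1, Vcl and Zyx had adjusted p of 0.193, 0.110, 0.0925, 0.280 and 0.259. Leaving out replicate 2 of 2 days left 3 of the 6 calls (Itga6, Itga7 and Vcl). In that muscle Itga5, Itga7, Itgb1, Ilk, Tln1 and Zyx had the highest of the 3 values. Itgb1 also lost its call without replicate 3 of 2 days (adjusted p = 0.0549) and Zyx without replicate 3 of 30 days (adjusted p = 0.0685), while Tln1 passed without replicate 1 of 2 days (-0.54, adjusted p = 0.0200). On the values as deposited, where the median of all genes was -0.27, Ilk and Tln1 were called lower too.

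Over the 24 muscles the members varied together to unequal degrees, given here as a description, since pairs of muscles share an animal and groups of muscles share a treatment. Log2 values of Itga5 had Pearson r of 0.948 with Vcl, 0.943 with Tln1, 0.872 with Itgb1 and 0.787 with Itga7. Zyx and Tln1 had r of 0.930, and Zyx and Itga7 0.889. Flna was most like Tln1 (0.811) and had r of 0.447 with Itga7. Itga6 had r between -0.434, with Itga7, and 0.363, with Flna, and Itgav between -0.149 and 0.414. Itga6 and Itgav thus stood apart from the other 8 members.

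Among the 3835 other genes with a mean of at least 10, the gene most like Itga5 was Emp1 (r = 0.980), which encodes an epithelial membrane protein. For Itga7 it was Pdlim3 (0.962), a Z-disc LIM protein whose mean went from 407 in control to 1866 after 2 days and 527 after 30 days. For Vcl it was Xirp1 (0.972), an actin-binding protein of muscle attachment sites, with means of 45.1 in control, 872.5 after 2 days and 353 after 30 days. For Tln1 it was Klhl40 (0.964), for Itgb1 Cct3 (0.969), a subunit of the chaperonin that folds actin, and for Zyx Lmna (0.951), the gene of lamin A. The nearest for Ilk was Rgcc (0.938), for Flna Msn (0.889), the gene of moesin, and for Itgav Filip1l (0.819). The points share the same training groups, so that any gene with a like time course ranks high.

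Other genes of the pathway were taken from lists by role. Of 8 other integrin subunits tested, among 19 in the table, 1, 2, 2 and 3 rose after 2, 10, 20 and 30 days, and 0 fell. Over all genes 13.5%, 13.3%, 9.64% and 9.46% fell. Over all genes 15.4%, 15.6%, 11.7% and 11.1% rose, so that the count at 2 days was no higher than in all genes. Those that rose included Itgb2, the leukocyte beta 2 subunit, with a log2 fold change of 0.84 at 2 days (adjusted p = 1.28e-04), from a mean of 0.350 to 1.44. Itga3 had 0.44 at 10 days (adjusted p = 0.00157) and Itgb6 0.44 at 30 days (adjusted p = 0.00587). Itgb2 and Itga3 had control means of 0.350 and 0.663, under the value of 1 that the filter asks of 3 muscles. Both may have been tested only because trained muscles were high, so their rise is not independent of the filter. Itga11, named after its values were seen, had 0.42 at 20 and 30 days (adjusted p = 0.0116 and 0.0119). With animal as a block 1 of the 8 was called at each time, near the 11.8%, 12.1%, 9.94% and 7.21% of all genes, Itgb2 at 2 days and Itga3 later, and Itgb6 was not (adjusted p = 0.114). The median log2 fold changes of the list were 0.04, 0.11, 0.19 and 0.19. Beside these, the summed level of 7 macrophage and leukocyte markers lay between 4.41 and 13.6 in control muscles and between 15.4 and 41.5 in the trained ones. Of 5 of them tested, 4 were higher at 2 days and 5 at the later times, Cd68 was at 0 in 1 muscle and no other was at 0. Cd68 and Cd163 had control means of 0.7 and 0.971, so the same limit from the filter may apply to them. Itgam is in both the marker list and the list of integrin subunits. Neutrophil markers S100a8 and S100a9 summed to at most 2.44 in any muscle, with S100a8 at 0 in 13 of the 24. The part of these markers in the values of Itgb2 and Itga5 was not tested. The summed markers of smooth muscle and pericytes, satellite cells and Schwann cells overlapped with the control range in each trained group, with 6, 3 and 4 genes in the table.

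Of 34 other focal adhesion linkers tested, 18, 20, 13 and 12 rose in the same order of times, while 0, 0, 2 and 1 fell. Over all genes 15.4%, 15.6%, 11.7% and 11.1% rose, and 13.5%, 13.3%, 9.64% and 9.46% fell. With animal as a block 14, 18, 12 and 11 of the 34 rose, where 11.8%, 12.1%, 9.94% and 7.21% of all genes did. The list medians were 0.38, 0.43, 0.26 and 0.25. Flnc, the muscle filamin, went from 118.8 ± 18.4 (SD, n = 12) to 793 ± 333 (SD, n = 3) after 2 days (2.66 on the log2 scale, standard error 0.19, adjusted p = 4.29e-10), and stood at 0.93 at 30 days (adjusted p = 0.00141). That change at 2 days was larger than the 0.55 of Flna. Tes, a zyxin-binding LIM protein, rose by 1.10 at 10 days (adjusted p = 3.71e-06), and Vasp, an actin polymerisation factor bound by zyxin, by 1.02 at 20 days (adjusted p = 8.99e-06). Tes had a control mean of 0.550, under the filter's value of 1, so it may have been tested only because trained muscles were high. Pdlim7 fell by 0.67 at 30 days (adjusted p = 3.44e-04), and Pdlim5, named after its values were seen, fell by 0.40 at 20 days (adjusted p = 0.00800).

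Of 17 focal adhesion signalling genes tested, 4, 6, 6 and 4 rose, where 15.4%, 15.6%, 11.7% and 11.1% of all genes did. At 2 days 1 fell, where 13.5% of all genes did. With animal as a block 2, 3, 3 and 0 of the 17 rose and 0 fell, where 11.8%, 12.1%, 9.94% and 7.21% of all genes rose, so the share at 2 days was that of all genes and at 30 days below it. Src, a kinase activated at adhesions, rose by 1.35 at 10 days (adjusted p = 1.82e-05). Git1 and Fyn rose by 0.51 and 0.49 at that time (adjusted p = 3.83e-04 and 5.22e-04). Arhgef7 fell by 0.40 at 2 days (adjusted p = 0.00226), a call lost with the block (adjusted p = 0.0698). Ptk2, the gene of focal adhesion kinase, named after its values were seen, had log2 fold changes of -0.19, -0.22, -0.16 and -0.13, none past the threshold. The list medians were 0.05, 0.16, 0.12 and 0.15, below those of the members at each time.

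Integrin ligands of the matrix had the largest medians of these 5 lists, 0.77, 1.21, 0.96 and 0.77, and of 24 tested 14, 18, 16 and 15 rose and 0 fell. Over all genes 15.4%, 15.6%, 11.7% and 11.1% rose, and 13.5%, 13.3%, 9.64% and 9.46% fell. With animal as a block 19, 17, 15 and 12 rose, where 11.8%, 12.1%, 9.94% and 7.21% of all genes did. With the block 1 fell at 2 days, Vtn (vitronectin, named after its values were seen, adjusted p = 0.0229), where 9.8% of all genes fell. Col1a1 and Col3a1, fibrillar collagens, rose by 2.65 and 2.64 at 10 days (adjusted p = 1.16e-06 and 8.01e-08). Thbs1, the gene of thrombospondin 1, rose by 2.14 at 2 days (adjusted p = 7.69e-13), from a mean of 0.952 to 7.62. Fn1, the gene of fibronectin and thus of the ligand of the Itga5 product, named after its values were seen, went from 6.49 in control to 15.8, 19.3, 14.3 and 15.2, log2 fold changes of 1.16, 1.45, 1.08 and 1.15 (adjusted p = 0.00145, 1.29e-04, 0.00342 and 0.00238). Lama2, the laminin chain bound by alpha 7 beta 1 and also named after its values were seen, had 0.43 at 2 days (adjusted p = 0.0769, and 0.0117 with animal as a block) and 1.41 at 10 days (adjusted p = 1.75e-06). Beside this list, 5 fibroblast markers summed to between 52.7 and 171 in control muscles and between 157 and 524 in the trained ones. Of these 5, 4 were higher at 2 days and 5 at the later times, and none was at 0 in any muscle. Col1a1 is in both lists, and the part of the marker change in the ligand and Itga5 values was not tested.

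In a list for serum response factor and its cofactors, which control many cytoskeletal genes, 6 genes were tested. Of these, 1 rose at 2 days, 1 at 10 days and 0 later, near the 15.4% and 15.6% of all genes at the first times. None fell, where 13.5%, 13.3%, 9.64% and 9.46% of all genes did. The genes that rose were Srf at 2 days (0.34, adjusted p = 0.0459) and Wwtr1 at 10 days (0.50, adjusted p = 0.0215), both named after their values were seen. Wwtr1 encodes a coactivator of TEAD factors, so its rise is not that of a serum response factor cofactor. With animal as a block 2, 2, 0 and 0 genes of the list were called higher and 0 lower. Over all genes 11.8%, 12.1%, 9.94% and 7.21% were called higher with the block, and 9.8%, 8%, 7.42% and 5.09% lower. Srf had an adjusted p of 0.556 at 2 days under the block, so it was not among the genes called there. The list medians were 0.35, 0.15, -0.01 and -0.18.

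**Figure D5:**
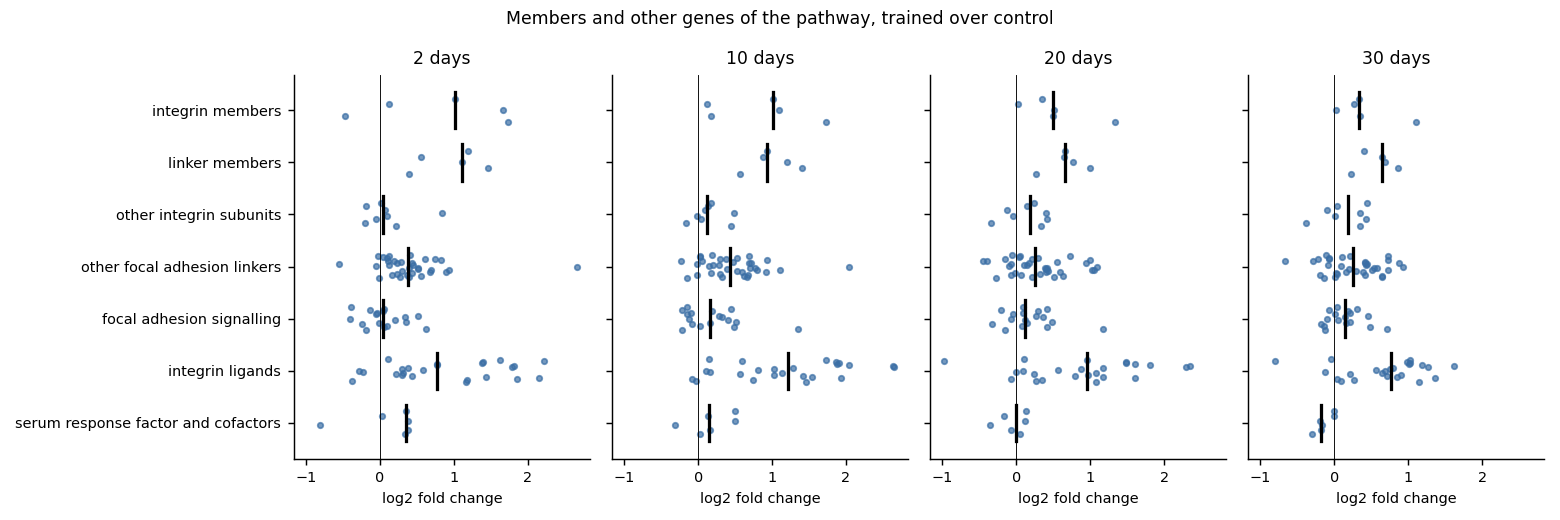
Log2 fold change, trained over the 12 contralateral muscles (x axis), of each tested gene (points) in the members and in 5 other lists of the pathway (y axis), at 2, 10, 20 and 30 days (panels); black bars are list medians. The medians of both member groups and of the integrin ligands lie above those of the signalling genes and the other integrin subunits at each time.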

How the data were processed

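RNA of 24 tibialis anterior muscles, left (trained) and right (contralateral) of 12 rats, was sequenced as poly-A libraries. Per the labels and methods, the authors trimmed reads, aligned them with STAR to rn6 in Partek Flow and quantified Ensembl transcripts. The deposited transcript table is named as DESeq2-normalized, but its values are TPM-type, not whole and with the same total in each sample, so TPM as deposited by the authors is the unit used. The second deposited table holds gene-level signal values for 4635 genes, whose exact scaling by the authors is not stated. Another file holds the authors' own comparisons (p-values, FDR, ratios, fold changes and group means), which were not used. Neither table keeps counts, so no count model was run, and read totals per sample were not used here.

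Transcripts were summed per gene symbol, rescaled by median of ratios and tested as log2(value + 1) with limma 3.58.1 in R 4.3.3, for genes at 1 or above in 3 or more samples. 5 groups entered 1 fit, the 12 contralateral muscles and 4 trained groups of 3, and p-values were adjusted by Benjamini-Hochberg at 0.05 over 11196 genes. The design text gives 4 animals per time, and 3 per time were analysed here. The fit was first run on simulated muscles, drawn independently with the control mean and spread of each gene. That run had no animal effect and the same spread in all groups, so it could not test the handling of paired muscles. Python 3.11.15, numpy 2.4.6, pandas 2.3.3 and matplotlib 3.10.9 were used for summaries and plots. Of 276 pairs of samples, 0 held identical values. The p-values of the main fit measure the spread between muscles within the 5 groups and ignore the pairing of left and right muscles. Those with animal as a block measure the spread of the differences within animals.

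The animal number in the labels pairs left and right muscles, and deviations from group means had a median r of 0.174 within animals (12 pairs, from 0.0277 to 0.343) and -0.100 between animals (24 pairs). Deviations in a group of 3 sum to 0, so the value between animals is tied to that within animals and is no separate check. Animal as a block was an alternative, beside the values as deposited, a pseudocount of 0.1, no filter, a mean of at least 10, a threshold of 0.01, time-matched controls, the highest transcript, an intensity trend, leaving out each muscle, and the gene-level table, which was added after seeing the data. Named genes were all members, up to 3 rising and 3 falling genes per pathway list with the largest change among those called with the 3 trained muscles outside the control range, and the gene most like each member among those with a mean of at least 10; the few others are marked where they appear. Members, pathway lists and marker lists (skeletal muscle fibre, endothelial, fibroblast, smooth muscle and pericyte, macrophage and leukocyte, neutrophil, satellite cell, Schwann cell) were chosen with earlier results of these data known.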

Additional observations from a re-analysis of the deposited data

Results flagged for a closer look

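The following changes differed between lengths of training by a direct limma contrast of the trained groups (Benjamini-Hochberg over all genes). Between 2 and 10 days the log2 value of Itga6 rose by 0.64 (adjusted p = 0.0373), while the difference between the trained-minus-contralateral changes of the 2 times, the quantity that a block by animal gives, was 0.47 (adjusted p = 0.484). Between 2 and 30 days it rose by 0.81 (adjusted p = 0.00151, and 0.110 for the difference of within-animal changes). Over the same span the difference was -1.64 for Itga7 (adjusted p = 5.10e-05, and 0.0266 for that difference), the one called for both quantities. It was -0.79 for Zyx, -0.68 for Itgb1, -0.63 for Itga5 and -0.60 for Vcl (adjusted p = 0.00907, 0.00964, 0.00906 and 0.00667), none of which was called for the difference of within-animal changes (adjusted p = 0.259, 0.0925, 0.193 and 0.280).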

How the results depend on the processing

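Over the alternatives, 664 of the values that were called against control kept direction and call and 42 lost the call, and between trained groups 86 kept and 17 lost it. No called value changed sign. These are counts of overlapping refits of the same muscles, many of which leave out a single muscle, so they are not independent checks. The tables hold no counts, so no limit from read depth was computed. The number of members called was unstable where few were. From 2 to 10 days it was 1, but 0 on the values as deposited, with a mean of at least 10, at a threshold of 0.01, with animal as a block and in both forms of the gene-level signal table, and 0 to 2 on leaving out single muscles. At 20 days (7) it was 3 in the signal table as deposited and 4 to 8 on leaving out muscles. At 30 days (4) it was 2 with a mean of at least 10, a filter that keeps 6 members, and 0 in the signal table as deposited, which holds 7. From 10 to 20 days (0) it was 5 in that table and 0 to 1 on leaving out muscles. From 2 to 30 days (6, beside 1677 of 11196 genes) it was 1 with the block, which there tests the difference of within-animal changes, beside 314 genes. On leaving out muscles it was 3 to 7, beside 715 to 2123 of the genes tested. Controls of the same time alone ended the calls of Flna at 2 and 30 days, Itga6 at 2 and 20 days, Ilk at 2 days (adjusted p = 0.181) and Itga7 at 20 days (adjusted p = 0.173). Beyond those named with their block values, the block changed no other call of a member against control.

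Of the lists, signalling genes (5, 6, 6 and 4 called at 2, 10, 20 and 30 days) numbered 2, 3, 3 and 0 with the block and 3, 3 and 0 at 2, 10 and 30 days with time-matched controls. Other integrin subunits numbered 1 at 10, 20 and 30 days with the block, 1, 1 and 0 with time-matched controls, and 0 at 30 days on the values as deposited. The list for serum response factor and its cofactors, which also holds Wwtr1, numbered 2 at 2 and 10 days with the block and as deposited. It numbered 2 at 10 days with time-matched controls, and 1 at 30 days as deposited. Over all 11196 genes the block called 2417, 2252, 1944 and 1377 at 2, 10, 20 and 30 days. Time-matched controls called 2196, 2007, 1589 and 1121, and the values as deposited 2863, 2778, 1908 and 3237 of 11262.

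Log2 differences that changed sign were all uncalled, and the cause was not tested. On the values as deposited they were Flna -0.22 and Itgav -0.067 (2 to 30 days), Itga7 -0.18 (30 days against control), and Itga5 0.000907, Itgav 0.0083 and Itgb1 0.00553 (2 to 10 days). In the signal table as deposited they were Flna -0.44 (2 to 30 days), Itgb1 0.045 (2 to 10 days; 0.040 rescaled), and at 30 days against control Ilk -0.19, Itga7 -0.26, Itgb1 -0.096 and Zyx -0.016. With the block they were Flna 0.055 (10 to 20 days), Ilk 0.086 and Itgav -0.18 (2 to 30 days), Ilk 0.013 and Vcl 0.074 (20 to 30 days), and Itgav -0.056 (20 days against control, the same with time-matched controls). Itgav was 0.19 (2 to 10 days), -0.17 (2 days) and -0.031 (20 days) with the highest transcript, and 0.013 (2 to 10 days) with a pseudocount of 0.1. On leaving out single muscles, against control, Itga6 ran from -0.0081 to 0.33 (10 days), Itga7 from -0.047 to 0.12 (30 days) and Itgav from -0.020 to 0.35, -0.035 to 0.29, -0.14 to 0.16 and -0.050 to 0.49 (2, 10, 20 and 30 days). From 2 to 10 days Itga5 ran from -0.21 to 0.26, Itgav from -0.22 to 0.16, Itgb1 from -0.23 to 0.22, Tln1 from -0.024 to 0.23 and Vcl from -0.12 to 0.0094. Itgav ran from -0.27 to 0.055 (10 to 20 days), -0.071 to 0.47 (20 to 30 days) and -0.18 to 0.36 (2 to 30 days). From 20 to 30 days Flna ran from -0.12 to 0.092, Itgb1 from -0.086 to 0.065 and Tln1 from -0.23 to 0.11.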
